A study of Mus musculus with 21 samples.

Results

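Nanog is a homeodomain transcription factor that holds embryonic stem cells (ESCs) and the early epiblast in the pluripotent state, acting with Oct4 and Sox2. Its homeodomain binds DNA, and the region ahead of it modulates transcription. Mouse and human genomes also hold processed pseudogenes of Nanog, intronless copies made from reverse-transcribed mRNA, so a short read from a Nanog exon can resemble more than 1 place in the genome. The Nanog calls described here are every line of the 18 deposited lists of single-nucleotide variants (SNVs) that names Nanog as its gene and is not intergenic. The gene was chosen by its presence in these lists, that is by alternative reads in the ESCs and their lack in the control, so the contrast with the control is given as a description with no test. Differences in the fraction among the culture conditions were no part of that choice. They numbered 10 calls at 2 sites, of 91523 calls in all. All 10 came from ESC lists (18125 calls at 4358 sites) and 0 from tumour lists (73398 calls), and no further line named Nanog as an intergenic neighbour. Both sites were missense changes in the coding sequence, so the description as coding changes held for every call.

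The study sequenced captured exonic DNA of ESCs in 5 culture conditions and DNA of tumours. The tumours came from mice built with ESCs through the tetraploid complementation assay, where the host embryo mainly supplies the placenta. The series title names exome sequencing, whereas its design text gives ATAC-seq for the tumours, so their assay is not settled. All samples were of the strain written C57BL6X129S6F1, and all 5 ESC media held 1000 IU of leukaemia inhibitory factor (LIF). SL was medium with 15% serum on feeder cells. The 4 others were serum-free N2B27 medium with 3 µM of CHIR99021, a GSK3 inhibitor. 2iL added 1 µM of the MEK inhibitor PD0325901 on feeders, and 2iL-F was the same medium without feeders. A2iL added 1.5 µM of the Src inhibitor CGP77675 on feeders, and LCDM added 2 µM each of the compounds written Dim and Mih, on feeders. Each condition had 2 libraries, numbered 3 and 5. Each ESC list was called against genomic DNA of 1 sample of mouse embryonic fibroblasts (MEFs), and the labels do not say whether this is the feeder stock. The 8 tumour libraries (1 of 2iL-P9, 3 of A2iL-P9, 1 of A2iL-P14, 2 of LCDM-P9, 1 of 2iL-F-P9) had controls whose names begin with WT. The labels leave the library numbers and the terms P9 and P14 unexplained. They do not say either whether the libraries of a condition were separate cultures, so p-values measure the spread between libraries, which may be technical.

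The ESC lists held 1762 to 1858 calls each, with median depths between 54 and 72 reads. Among them, 0 of the 1955 pairs of distinct ESC sites within 10 kb of each other shared a library, so a list gives at most 1 call in such a stretch. A site can therefore be missing from a list that gives a neighbouring site.

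The first change, P72T, lies on chromosome 6 at position 122711600 (mm10), 4111 bp from the first base of the RefSeq gene, which spans positions 122707489 to 122714633. It changes C to A at coding base 214 (C214A), the first base of codon 72, in exon 2, and exchanges proline for threonine. The second, P61H, lies 32 bp before it at position 122711568, in the same exon. It changes C to A at coding base 182 (C182A), the second base of codon 61, and exchanges proline for histidine. The gap is shorter than the sheared fragments that the protocol describes. Of the 4 RefSeq transcripts in the annotation, 2 carry these numbers. In the other 2 the changes lie in exon 3 and are numbered P47T and P36H, 25 residues lower. Both prolines lie ahead of the homeodomain. Neither site was annotated as a segmental duplication, a repeat or a dbSNP entry.

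P72T was called in 9 libraries and P61H in the remaining one, so that each ESC library had exactly 1 Nanog call. Over all genes, 34.1% of the 734 coding ESC sites and 19.2% of the 4358 ESC sites were called in at least 9 libraries, so recurrence of this kind was common in these lists. A coding ESC site of any kind occurred in 2.4% of the 21900 RefSeq protein-coding genes.

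In serum, SL library 3 had 28 reads with the reference base and 10 with the P72T base, a fraction of 0.263 (Wilson 95% interval 0.150 to 0.420). SL library 5 had 36 and 6, a fraction of 0.143 (0.0672 to 0.278), the lowest of the 9. The SL pair thus spanned much of the whole range, although both libraries were grown in the same medium.

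In 2iL library 3, 23 reads carried the reference base and 8 the P72T base, a fraction of 0.258 (0.137 to 0.432). 2iL library 5 was the library without P72T. It had P61H instead, with 14 reference and 7 alternative reads, a fraction of 0.333 (0.172 to 0.546). The labels give both 2iL libraries the same medium and feeders.

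A2iL library 3 had 32 and 13 reads, a fraction of 0.289 (0.177 to 0.434) at P72T. A2iL library 5 had 23 and 10 reads, a fraction of 0.303 (0.174 to 0.473). These 2 libraries lay close together, as did the LCDM pair.

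LCDM library 3 had 17 and 6 reads at P72T, a fraction of 0.261 (0.125 to 0.465), and its depth of 23 reads was the lowest of the 9. LCDM library 5 had 22 and 8 reads, a fraction of 0.267 (0.142 to 0.444). Without feeders, 2iL-F library 3 had 33 and 10 reads, a fraction of 0.233 (0.132 to 0.377). 2iL-F library 5 had 25 and 14 reads, a fraction of 0.359 (0.227 to 0.516), the highest of the 9. P72T was therefore read in both libraries of the condition without feeder cells, at fractions on either side of the median of all 9 libraries, 0.263. These intervals cover counting error alone, since the reads carry no molecular identifiers.

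**Figure D1:**
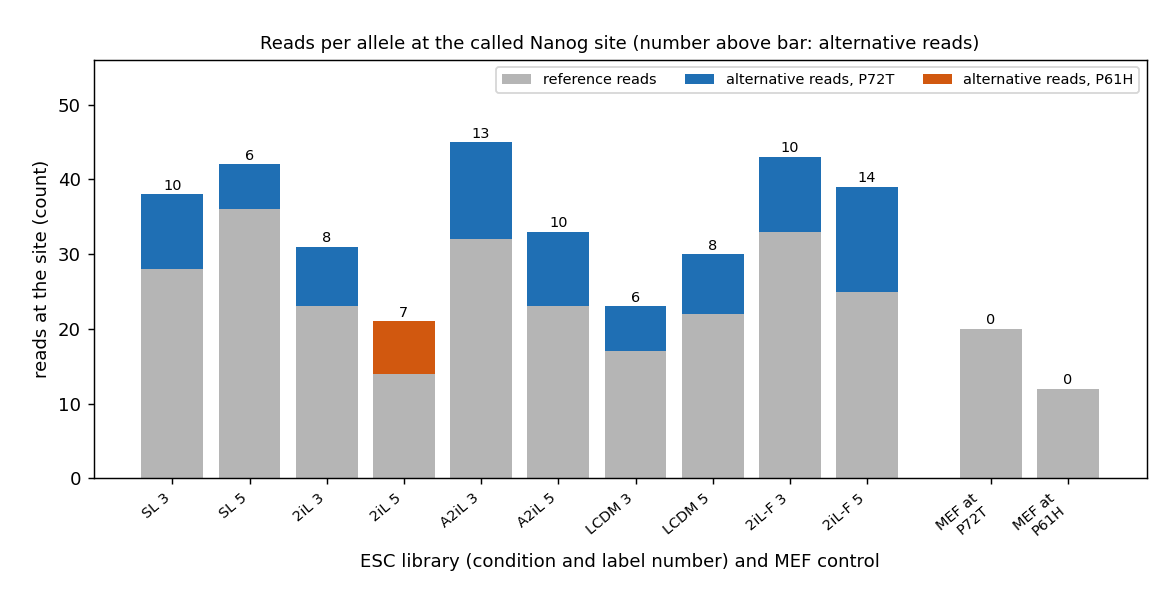
Stacked bars give the number of reads (vertical axis) with the reference base (grey) and with the alternative base (blue for P72T, orange for P61H) at the Nanog site called in each ESC library, and in the MEF control at both sites. Alternative reads number 6 to 14 at P72T and 7 at P61H, and 0 in the MEF control.

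The MEF control had 20 reads at P72T and 12 at P61H, with 0 alternative reads at either. A count of 0 in 20 reads allows a fraction of up to 0.15, and 0 in 12 one of up to 0.25. The fractions of 8 of the 9 P72T libraries exceeded the first limit, and the P61H fraction exceeded the second. These fractions carry counting error of their own. The lower interval bound at P72T was above 0.15 only in A2iL library 3 (0.177), A2iL library 5 (0.174) and 2iL-F library 5 (0.227). At P61H the lower bound, 0.172, was below 0.25. SL library 5, at 0.143, fell just below the first limit, which is approximate, so this limit does not set that library apart from the control. The control was the same sample in every comparison, and its 0 is therefore 1 observation at each site, not several. A control free of alternative reads was the rule in these lists, at 96.5% of the sites called in exactly 9 libraries.

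Over the 9 libraries the mean P72T fraction was 0.264 ± 0.0579 (SD, n = 9), from 85 alternative reads in 324. The condition means were 0.203 ± 0.0849 for SL, 0.264 ± 0.00424 for LCDM, 0.296 ± 0.00990 for A2iL and 0.296 ± 0.0891 for 2iL-F (SD, n = 2 each), and the single 2iL library had 0.258. Differences among these means were no larger than the spread within conditions (F = 0.759, p = 0.661 by an exact one-sided permutation test, n = 9 libraries in 945 partitions). The Wilson intervals of all 36 pairs of these libraries overlapped, and all 9 overlapped the interval of P61H in 2iL library 5. With 23 to 45 reads per library, differences between conditions smaller than these intervals were not detectable, so the test does not show that the conditions had equal fractions. With the P61H value in place of the missing 2iL library, p was 0.580 by the same exact permutation test.

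A germline heterozygous site of a diploid gene has an allele fraction near 0.5. The upper interval bound was below 0.5 in 8 of the 9 P72T libraries, and 2iL-F library 5 reached 0.516. At P61H the interval reached 0.546. The P72T fraction lay above the median of all calls of its own library in 7 of 9 libraries, at the 28.5th to 66.0th percentile, so it was an ordinary fraction for these lists. Base quality was 36 or 37 at each of the 10 calls.

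**Figure D2:**
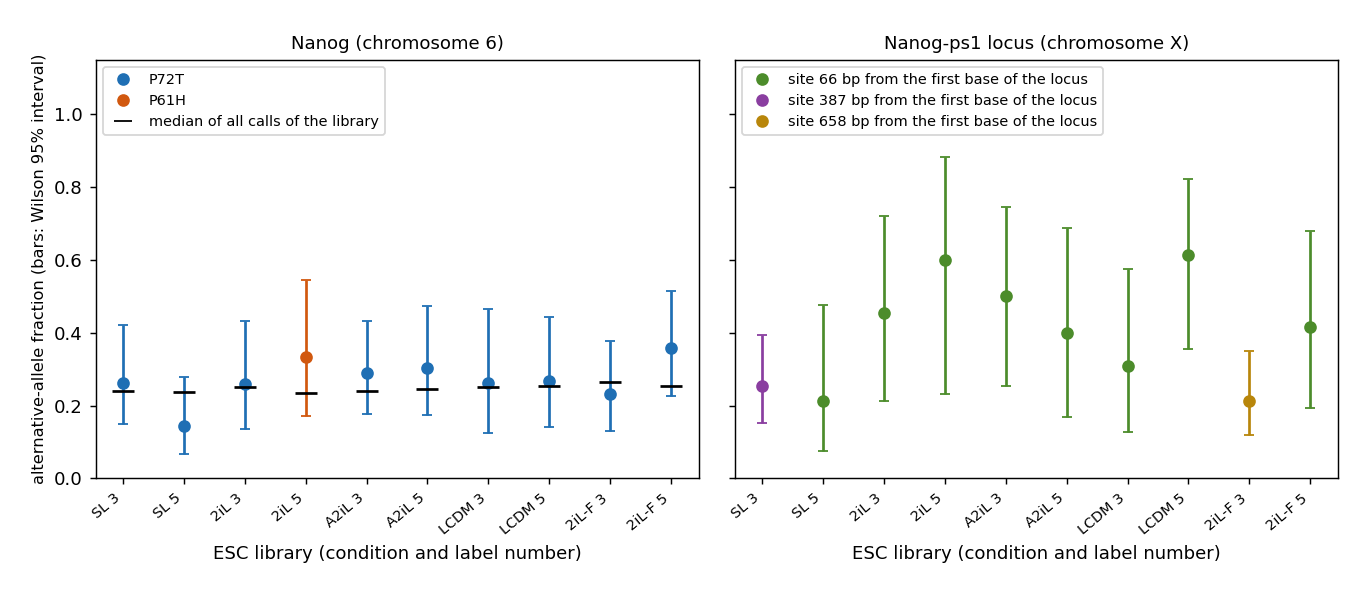
Points give the alternative-allele fraction (vertical axis, no unit) in each ESC library (horizontal axis) with Wilson 95% intervals, for the Nanog call at left and for the call at the Nanog-ps1 pseudogene locus at right, and black dashes mark the median of all calls of the library. The Nanog fractions run from 0.143 to 0.359 with overlapping intervals, and the Nanog-ps1 locus has a call in each of the 10 libraries.

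Compared with the 200 ESC sites called in exactly 9 libraries, the median P72T fraction of 0.263 stood at the 49.5th percentile (median of those sites 0.265). Its median depth of 38 reads stood at the 36th percentile of these sites. Among the 36 coding sites called in exactly 9 libraries it lay at the 69.4th percentile for the fraction but at the 5.56th for depth, against a median of 138 reads. The MEF depth of 20 reads stood at the 2.78th percentile of the same coding sites, whose median was 135.5. Nanog exon 2 was thus among the shallowest of the recurrent coding sites, in the ESCs and in the control. Among the 172 coding sites called in a single library, the P61H fraction of 0.333 stood at the 91.3rd percentile, and its 21 reads at the 15.7th (medians 0.076 and 91 reads). At low depth a small fraction gives few alternative reads and may go uncalled. The percentiles of fraction among coding sites are therefore not independent of the low depth.

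**Figure D3:**
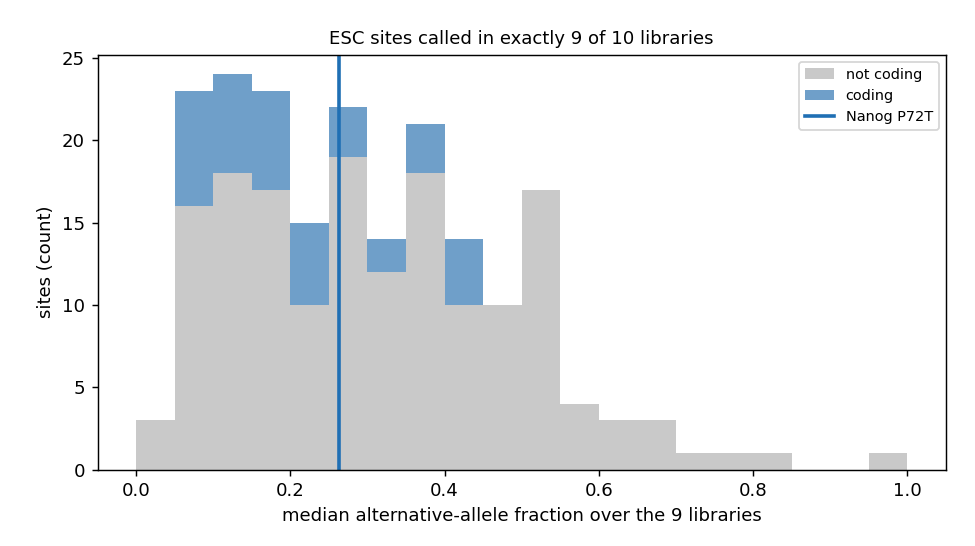
The histogram counts ESC sites (vertical axis) called in exactly 9 of the 10 libraries by their median alternative-allele fraction (horizontal axis), coding sites in blue and others in grey, with a line at Nanog P72T. P72T, at 0.263, lies beside the median of these 200 sites, 0.265.

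Both Nanog changes are of the C>A class (with G>T counted as the same class on the other strand). This class made up 13.3% of all ESC sites, 9.5% of the sites called in exactly 9 libraries and 14.1% of the sites of a single library. Their median fractions were 0.211, 0.278 and 0.187.

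Whether P61H and P72T are 2 events or 2 readings of 1 signal was asked from their spacing and fractions. The lists do not give the reads of a site in a library where it was not called, so neither the P72T reads of 2iL library 5 nor the P61H reads of the 9 others were seen, nor whether 1 read held both bases. The arrangement itself was frequent. Of the 1955 pairs of ESC sites within 10 kb, 295 (15.1%) divided the 10 libraries between them with none left over, as the Nanog pair did. The share was 28% among the 168 pairs of coding sites (47 pairs) and 28% among the 379 pairs outside segmental duplications and repeats (106 pairs), the classes to which both Nanog sites belong. In 97 of the 295 pairs, 1 library stood against 9. That library was 2iL library 5 in 17 pairs, the most of any library, against 7 to 13 for the other 9. Among the 295 pairs the median gap was 306 bp, and 37 pairs (12.5%) lay as close as the Nanog pair or closer.

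The median fractions of the 2 sites of such a pair differed by 0.035 in the median, against 0.0585 for the other pairs within 10 kb. The 2 groups of pairs were not matched for gap, depth or number of libraries, so this contrast is a description only. For Nanog the difference was 0.070, between 0.263 and 0.333, and 28.8% of the alternating pairs differed by more. The interval of the P61H fraction contains the median of P72T. The values thus do not separate 1 signal from 2. Because a list gives at most 1 call within 10 kb, P61H cannot be taken as absent from the 9 other libraries, nor P72T from 2iL library 5.

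**Figure D4:**
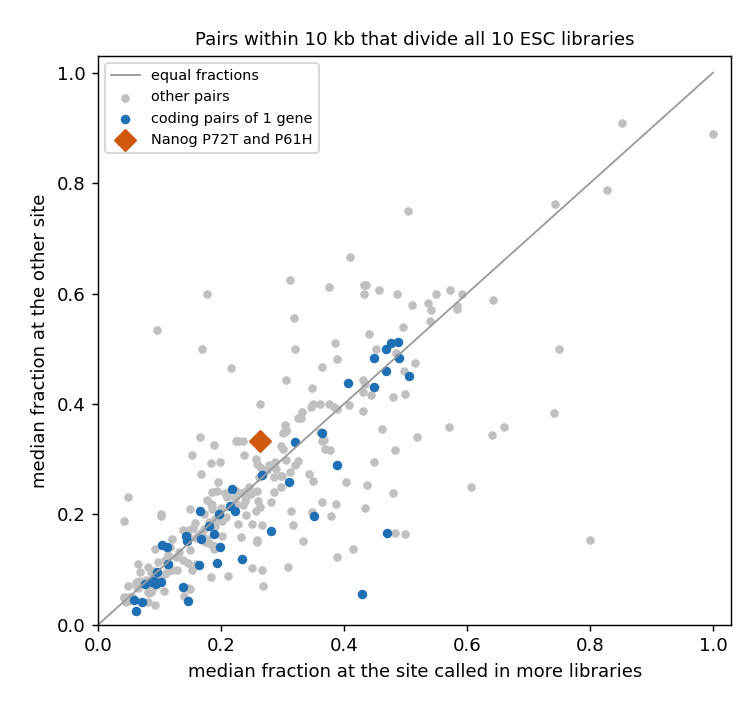
Each point is a pair of ESC sites within 10 kb that divides all 10 libraries, with the median fraction at the site called in more libraries (horizontal axis) against that at the other site (vertical axis). In pairs of 5 and 5 libraries the horizontal axis holds the lower position. The Nanog pair (diamond) lies at 0.263 and 0.333, above the line of equal fractions and within the cloud of the 295 pairs.

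The division occurred between coding sites of 1 gene in 47 pairs, in 45 genes, and in 16 of these pairs 9 libraries stood against 1. Both sites were missense in 16 of the 47. Likeness to Nanog was measured as the number of the 10 libraries in which a gene's more often called site was present or absent as P72T was. It was 10 of 10 in 2 genes and 9 of 10 in 3. Ctsm, a cathepsin of the placenta, had R109H in the same 9 libraries at a median fraction of 0.215, and the synonymous N55N in 2iL library 5 at 0.216, 257 bp away. Srfbp1, whose product binds serum response factor, had E249A in those 9 libraries at 0.429, and a synonymous change (S359S) in 2iL library 5 at 0.055, 331 bp away. The 2 Ctsm sites had nearly equal fractions, while those of Srfbp1 were far apart.

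Those at 9 of 10 included the mitotic cyclin gene Ccnb2 and the vomeronasal receptor gene Vmn1r27. Ccnb2 had the synonymous C314C in 8 libraries at a median of 0.234, and T294M, 61 bp away, in both 2iL libraries at 0.119. Vmn1r27 had V126I in 8 libraries at 0.196 and C53F in 2 at 0.201. In each of the 4 genes described, 2iL library 5 was among the libraries with the less often called site, which the measure of likeness favours by its construction.

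Pseudogene loci of Nanog were then examined. The RefSeq gene table (GRCm38.p6, the assembly of mm10) holds 2 pseudogenes named for Nanog. Nanog-ps1 lies on chromosome X, positions 89883165 to 89883633 (469 bp), and Nanog-ps2 on chromosome 12, positions 61458323 to 61459044 (722 bp). Nanog-ps2 had 0 calls in any list. Inside Nanog-ps1, 9 of the 10 ESC libraries had a call, and the last, 2iL-F library 3, had one 190 bp past its end. Of the 10442 RefSeq pseudogenes, 5.93% had an ESC call in at least 1 library and 2.7% in at least 9. The deposited annotation gives these calls as intergenic with no gene name, so they are not among the 10 Nanog calls.

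The site 66 bp from the first base of the Nanog-ps1 locus (position 89883231, T to C, in a repeat) was called in 8 libraries. Its depth was 5 to 14 reads and its fraction 0.214 to 0.615, with a median of 0.436. By library the alternative reads were 3 of 14 in SL 5, 5 of 11 in 2iL 3, 3 of 5 in 2iL 5, 6 of 12 in A2iL 3, 4 of 10 in A2iL 5, 4 of 13 in LCDM 3, 8 of 13 in LCDM 5 and 5 of 12 in 2iL-F 5. The MEF control had 0 alternative reads of 9, which allows a fraction of up to 0.333, and 2 of the 8 fractions, 0.214 and 0.308, lay below this limit. The lower Wilson bound was above 0.333 only in LCDM library 5 (0.355).

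SL library 3 had another site, 321 bp further on (position 89883552, G to T), with 12 of 47 reads, a fraction of 0.255 (Wilson 95% interval 0.153 to 0.395). There the MEFs had 0 of 67 reads, which allows up to 0.0448. 2iL-F library 3 had the site past the end of the locus (position 89883823, A to C), with 10 of 47 reads, a fraction of 0.213 (0.120 to 0.349), against 0 of 83 MEF reads, which allows up to 0.0361. These 2 calls had the most reads in ESCs and MEFs at the locus, and both fractions lay above what the control allows. All calls at this locus, like the Nanog calls, are in the lists because they were called against this control. The contrast with the control is therefore a description here too.

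The Nanog-ps1 locus thus had 1 call per library, as Nanog had, at different sites within 592 bp, and 0 alternative reads in the MEFs. The site at position 89883823 lies past the pseudogene. No list gives more than 1 call within 10 kb, and 93.8% of all ESC sites had 0 alternative reads in the MEFs. These shared features are therefore general in the ESC lists and not particular to the 2 loci. In the 7 libraries with P72T and the Nanog-ps1 site at 66 bp, the Nanog-ps1 fraction was the higher in each, for example 0.615 against 0.267 in LCDM library 5 and 0.214 against 0.143 in SL library 5. The Wilson intervals of the 2 fractions overlapped in each of the 7, however, as in LCDM library 5 (0.355 to 0.823 against 0.142 to 0.444). Over its 8 libraries the Nanog-ps1 site had 5 to 14 reads, and each call had at least 3 alternative reads. With so few reads a low fraction may go uncalled, so no difference is read from the shared direction. In SL library 3 and 2iL-F library 3, the deeper sites had fractions of 0.255 and 0.213, beside P72T fractions of 0.263 and 0.233. The sequences of exon 2 and of the pseudogenes were not used here, so whether the alternative bases of Nanog are those of a pseudogene was not tested.

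Pseudogenes that carry a gene's name were counted for the genes with similar calls. RefSeq lists one for 339 of the 21900 protein-coding genes (1.55%). The share was 9 of 228 (3.95%) for genes with a coding site in at least 9 ESC libraries and 5 of 40 (12.5%) for those genes with an alternating coding pair that the table lists as protein-coding. These 5 were Nanog, Ccnb2, Ctsm, Kars and Rps2, which were named after their values were seen. Nanog is counted although its own pair set the arrangement that was looked for, so this share is not independent of Nanog. Of genes with a coding tumour site, 18 of 1662 (1.08%) had one. These shares are descriptions, and copies listed under other names are not counted.

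The tumour lists had no call in Nanog, where 7.59% of the RefSeq protein-coding genes had a coding tumour site. The nearest tumour call lay 2368 kb from the gene in 7 tumours, intronic in Ccdc77, and 6685 kb away in LCDM-P9 replicate 2, in Tmcc1. Within 100 kb of Nanog-ps1 the tumour lists had 0 calls. These lists hold only called sites and, unlike the ESC lists, include calls closer than 10 kb. Absence of a line gives no limit on the fraction, and ESCs and tumours were not compared.

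Other genes of the pluripotency network were looked up in the same lists. Of 37 such genes, among them Pou5f1 and Sox2, which encode the partners Oct4 and Sox2, and Klf4, Esrrb and Tfcp2l1 of the naive network, 4 had an ESC site and 0 had a coding one. Over all 21900 RefSeq protein-coding genes 6.93% had an ESC site and 2.4% a coding one, so counts this small in 37 genes say nothing particular about the network. The 4 sites were intronic. Nr5a2, a nuclear receptor gene, had one in 5 libraries at 0.263 to 0.6 (8 to 19 reads). Stat3, which relays the LIF signal, had one in 3 libraries at 0.105 to 0.174 (19 to 39 reads). Dppa4 had one in 3 libraries at depths of 2 to 5 reads, and the growth factor gene Gdf3 one in A2iL library 3 at 0.073 of 41 reads. The first 3 of these lie in repeats. In the tumour lists 4 of the 37 genes had a site and 0 a coding one, where 15.4% and 7.59% of all protein-coding genes had one.

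The call nearest to Nanog in the same list lay 102 kb away in A2iL library 3, in Gdf3, and 171 kb away in SL library 3 and 2iL library 5, in Necap1. In the other 7 libraries it lay 1703 kb or more away. Of 9 named neighbours, 8 of them in the RefSeq table, 2 had ESC sites and 0 had tumour sites, against the same shares of 6.93% and 15.4% over all genes. The Necap1 change was synonymous (T181T), in an adaptor protein of clathrin-coated vesicles, with fractions of 0.074 and 0.081.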

How the data were processed

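SNV lists of 10 ESC and 8 tumour libraries were used; the MEF sample enters as the control column of the ESC lists. Alignment and read handling by the authors involved BWA, SAMtools and Picard on mm10, per the submitters' processing notes, which give no versions. The SNV caller is named in none of the sources used here. The deposited columns hold, per the file headers, genotype, reads per allele, base quality, depth and alternative-allele fraction for library and control. These read counts are not normalized, and uncalled sites have no values. The 8 control columns of the tumour lists match no sample label and were not used. The members, gene lists and tests were chosen with earlier results of these data known. Nanog lines were taken by gene name. Intervals are Wilson 95% intervals, and a count of 0 was taken to allow 3 reads. P72T fractions were compared among conditions by exact permutation of F over every partition of the libraries (Python 3.11.15, SciPy 1.17.1), checked on simulated data. Genes like Nanog were the first 5 by shared library pattern, with ties ordered by the fraction, of which 1 is not reported here. Pseudogenes came from the RefSeq table of GRCm38.p6. Library numbers were not used to pair samples in the main test. Over 636 sites called in all 10 libraries, deviations of same-numbered libraries correlated at -0.117 to 0.0792. These values do not exclude a batch or culture shared by libraries of the same number. Alternatives covered depth, quality, the fraction's scale, spacing, the replicate block and each library left out.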

Additional observations from a re-analysis of the deposited data

How the results depend on the processing

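The comparison of P72T fractions among conditions stayed on the same side of the threshold under every alternative run, with exact permutation p from 0.281 (without 2iL-F replicate 3) to 0.912 (without SL replicate 5) when a library was left out. The limits on depth and base quality removed none of the 9 libraries, so those alternatives only repeated the main test. With the library number as a replicate block, the exact permutation p was 0.708. The count of 2 Nanog sites was the same with at least 20 reads, at least 5 alternative reads, a base quality of at least 30 or 0 alternative reads in the control. The number of alternating pairs, 295, was 248 within 5 kb, 201 within 1 kb and 204 with at least 20 reads. It was 106 of 379 pairs outside segmental duplications and repeats and 47 of 168 among coding sites, 28% in both against 15.1% of all pairs, and the cause of the higher share was not tested. The planned comparison of tumour fractions was not run, since no tumour list had a Nanog call. Depth limits the precision of the Nanog values, with 21 to 45 reads in ESCs and 12 or 20 in the MEFs.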

Other observations

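A pseudogene named for 1 other gene of the pluripotency network had recurrent calls. Of the 37 listed network genes, 3 have a RefSeq pseudogene that carries their name: Zfp42, Dppa3 and Tdgf1. Over all 21900 RefSeq protein-coding genes the share was 1.55%. Of the 10442 RefSeq pseudogenes, 2.7% had ESC calls in at least 9 libraries, so a single such locus says nothing particular about the network. Zfp42 encodes Rex1, a marker of naive pluripotent cells. Zfp42-ps1 (chromosome 15, positions 93678603 to 93680033) had a G to A call at position 93679316 in 9 ESC libraries, all but LCDM library 3. Its fraction was 0.083 to 0.163 with a median of 0.116, at depths of 33 to 52 reads, and the MEF control had 0 alternative reads of 48. The pseudogenes of Dppa3 and Tdgf1 had 0 ESC calls, as had Nanog-ps2. The Zfp42-ps1 fraction lay below the P72T fraction of Nanog in its median (0.116 against 0.263), and this locus was looked up after the Nanog-ps1 calls were seen.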
